A study of Sus scrofa with 12 samples.

Results

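The genes described here belong to the families of histone methylation and acetylation enzymes, the proteins that add methyl or acetyl groups to histones or remove them. Membership follows gene symbols, and not every member acts mainly on histones, as told below for HDAC6 and the mitochondrial sirtuins. Members were the rows of the count table whose gene symbol begins with KDM, KMT, SETD (including SETDB), PRMT, HDAC or KAT followed by a number, or is EZH1, EZH2, EHMT1, EHMT2, SUV39H1, SUV39H2 or SIRT1 to SIRT7. The rule found 71 genes among the 29329 genes of the table. By class these were 7 H3K4 methyltransferases, 5 H3K9 methyltransferases, 2 H3K27 methyltransferases, 9 other SET-domain methyltransferases, 17 lysine demethylases, 7 arginine methyltransferases, 7 acetyltransferases, 10 class I, II and IV deacetylases and 7 sirtuins.

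The values are SMART-seq counts from porcine (Sus scrofa) embryos made by in vitro fertilisation (IVF), in 4 groups of 3 libraries. The groups con-2c and con-4c carry the treatment label blank control, and si-2c and si-4c were injected with si-CCNB2, a short interfering RNA (siRNA) against CCNB2, the mRNA of the mitotic cyclin B2. The study set the groups side by side to explore how CCNB2 takes part in the activation of the embryonic genome. A library was a pool of embryos according to the methods, the labels do not say that the 3 pools of a group came from separate IVF runs, and p-values therefore measure the spread between these pools, which may be technical. The methods describe the control embryos both as normal and as the negative control of si-CCNB2, so it was not clear whether they were injected, and the injection and the loss of CCNB2 cannot be told apart. Titles and tissue labels give opposite stages for all 12 libraries: the title 2c goes with 4-cell embryos in the tissue label, and the title 4c with 2-cell embryos. The group names below are the titles only, and no stage is assigned beyond them.

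DNA in the nucleus is wound on histones, and methyl or acetyl groups on the tails of histones change how tightly it is packed and which proteins bind it. Methylation of H3K4 and H3K36 marks transcribed genes, methylation of H3K9 and H3K27 marks silent chromatin, and acetylation opens chromatin until deacetylases remove it. In early mammalian embryos the marks inherited from egg and sperm are rewritten around the time when the embryo begins to transcribe its own genome, first with enzymes and mRNAs stored in the oocyte and then with new ones.

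The supplement of the study lists the designed siRNAs against CCNB2 below, shown because they define the si groups. Each has 19 bases, and the sources used here do not say which of them was injected.
Design 1, Si-CCNB2-1: gcagguccacuccaaguuu
Design 2, Si-CCNB2-2: gcuuauaccaguucccaaa

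The targeted mRNA followed the treatment labels. CCNB2 had a mean of 464 ± 21.7 CPM (read counts scaled to library size with TMM factors, ± SD, n = 3) in con-2c against 475 ± 41.8 in con-4c, then 22.7 ± 5.57 in si-2c against 42.6 ± 3.65 in si-4c, and all si libraries lay below all control libraries. In si-2c 4.88% of the con-2c level was left (log2 change -4.36, standard error 0.15, edgeR adjusted p 1.53e-12), and in si-4c 8.98% of the con-4c level (-3.48, standard error 0.14, adjusted p 5.14e-12). Library totals were between 27785233 and 39510908 counts. Markers of oocytes and early embryos (9 of 10 listed genes in the table, such as ZP2, GDF9 and BMP15) were present in every group, with a summed level of 4420 to 4754 CPM in con-2c against 2812 to 2906 in con-4c, then 3083 to 3144 in si-2c against 4039 to 4143 in si-4c. The cumulus and granulosa cell list (10 of 12 in the table) summed to 291 to 368, 174 to 186, 169 to 197 and 291 to 300 CPM in the same order, nearly all of it VCAN, and HAS2, CYP11A1 and FOXL2 were at 0 in con-2c, si-2c and si-4c and below 0.132 CPM in con-4c. Other genes of the list were detected at low levels. STAR, CYP19A1, TNFAIP6 and FSHR had means above 0 in every group, the highest being 1.04 CPM for TNFAIP6 in con-4c. PTX3 and LHCGR reached means of 0.603 and 0.188 CPM in si-2c. The sperm list (4 of 10 in the table) summed to 6.83 to 9.34, 10.4 to 14.8, 11.2 to 16.6 and 9.57 to 11.8 CPM, most of it ODF2. The oocyte and cumulus sums thus moved with the groups in the same way as some of the enzymes below. Not every oocyte marker followed the sum. OOEP did, with a mean of 1338 CPM in con-2c against 371 in con-4c, then 440 in si-2c against 1026 in si-4c. BMP15 ran the other way, at 887 CPM in con-2c against 984 in con-4c, then 1227 in si-2c against 1045 in si-4c. ZP2 was lower in con-4c (143 CPM) than in con-2c (173 CPM), but not in si-2c (177 CPM). The part of these sums in the results was not tested. In pools of embryos, fewer cells that hold an mRNA and less of it per cell cannot be told apart.

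Of the 71 enzymes, 67 had enough counts to be tested. PRMT8, HDAC10, HDAC7 and KDM5D were not, with at most 6, 12, 12 and 5 counts in any library. Their values give no level. CPM values are not divided by transcript length, so levels of different genes are not ranked here. Averaged over all libraries, 58 members were at 1 CPM or above, 31 at 10 or above and 7 at 100 or above. SUV39H1, HDAC5, HDAC11, SIRT2 and SIRT6 were tested although each had 0 counts in at least 1 library and at most 34, 19, 25, 23 and 27 counts in any, and their fold changes have wide errors. The summed level of all members was 1868 to 1960 CPM in con-2c against 2181 to 2238 in con-4c, then 2075 to 2121 in si-2c against 1896 to 2033 in si-4c, so the con-4c and si-2c libraries lay above the con-2c and si-4c libraries.

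To describe the control embryos, con-4c was set beside con-2c. The enzymes called higher in con-4c were SETD2, which writes H3K36 trimethylation behind elongating RNA polymerase II, the demethylases KDM4A, KDM5B and KDM5C, the deacetylase HDAC6, the acetyltransferases KAT14 and KAT2B and the arginine methyltransferase PRMT5. KAT8 and HDAC3 were called lower. Among these the fold changes ran from 2.24-fold higher for PRMT5 to 12.4-fold higher for HDAC6, and KAT8 and HDAC3 were 2.36-fold and 2.34-fold lower. A call required an edgeR adjusted p below 0.05 together with a change of at least 2-fold (log2 of 1). By this rule 8 of 67 members (11.9%) were higher and 2 (2.99%) lower, against 14.4% and 3.25% of all 17995 genes tested, so the members' shares were near the background. Without the minimum fold 25 members (37.3%) were higher and 6 (8.96%) lower, against 20.7% and 15.1% of all genes. The median log2 fold change was 0.21 over the members and 0.11 over all genes. Scaling by library totals in place of TMM factors moved the median of all genes by 0.27, gave 14 members higher and 0 lower past the 2-fold rule (17.9% and 1.27% of all genes under that scaling), and left the members 0.11 above the median of all genes, where TMM factors gave 0.10. Without a minimum fold library totals gave 31 members higher and 3 lower (29.1% and 7.37% of all genes), a setting added after seeing the data. Of the 6 members lower with TMM factors, 3 (KAT8, HDAC3 and SIRT4) stayed past the adjusted p under library totals and 3 (SUV39H2, KDM1B and PRMT9) did not. The further calls of library totals were KMT2A, SETD5, KDM2B, PRMT7, KAT7 and SIRT7. Of the 21 members past the adjusted p but under the 2-fold rule, 11 passed it in all 17 alternatives, and KMT2C, KMT2E, KMT5B, KDM4B, KDM4C, HDAC2 and SIRT1 lost it with at least 1 library left out.

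**Figure D1:**
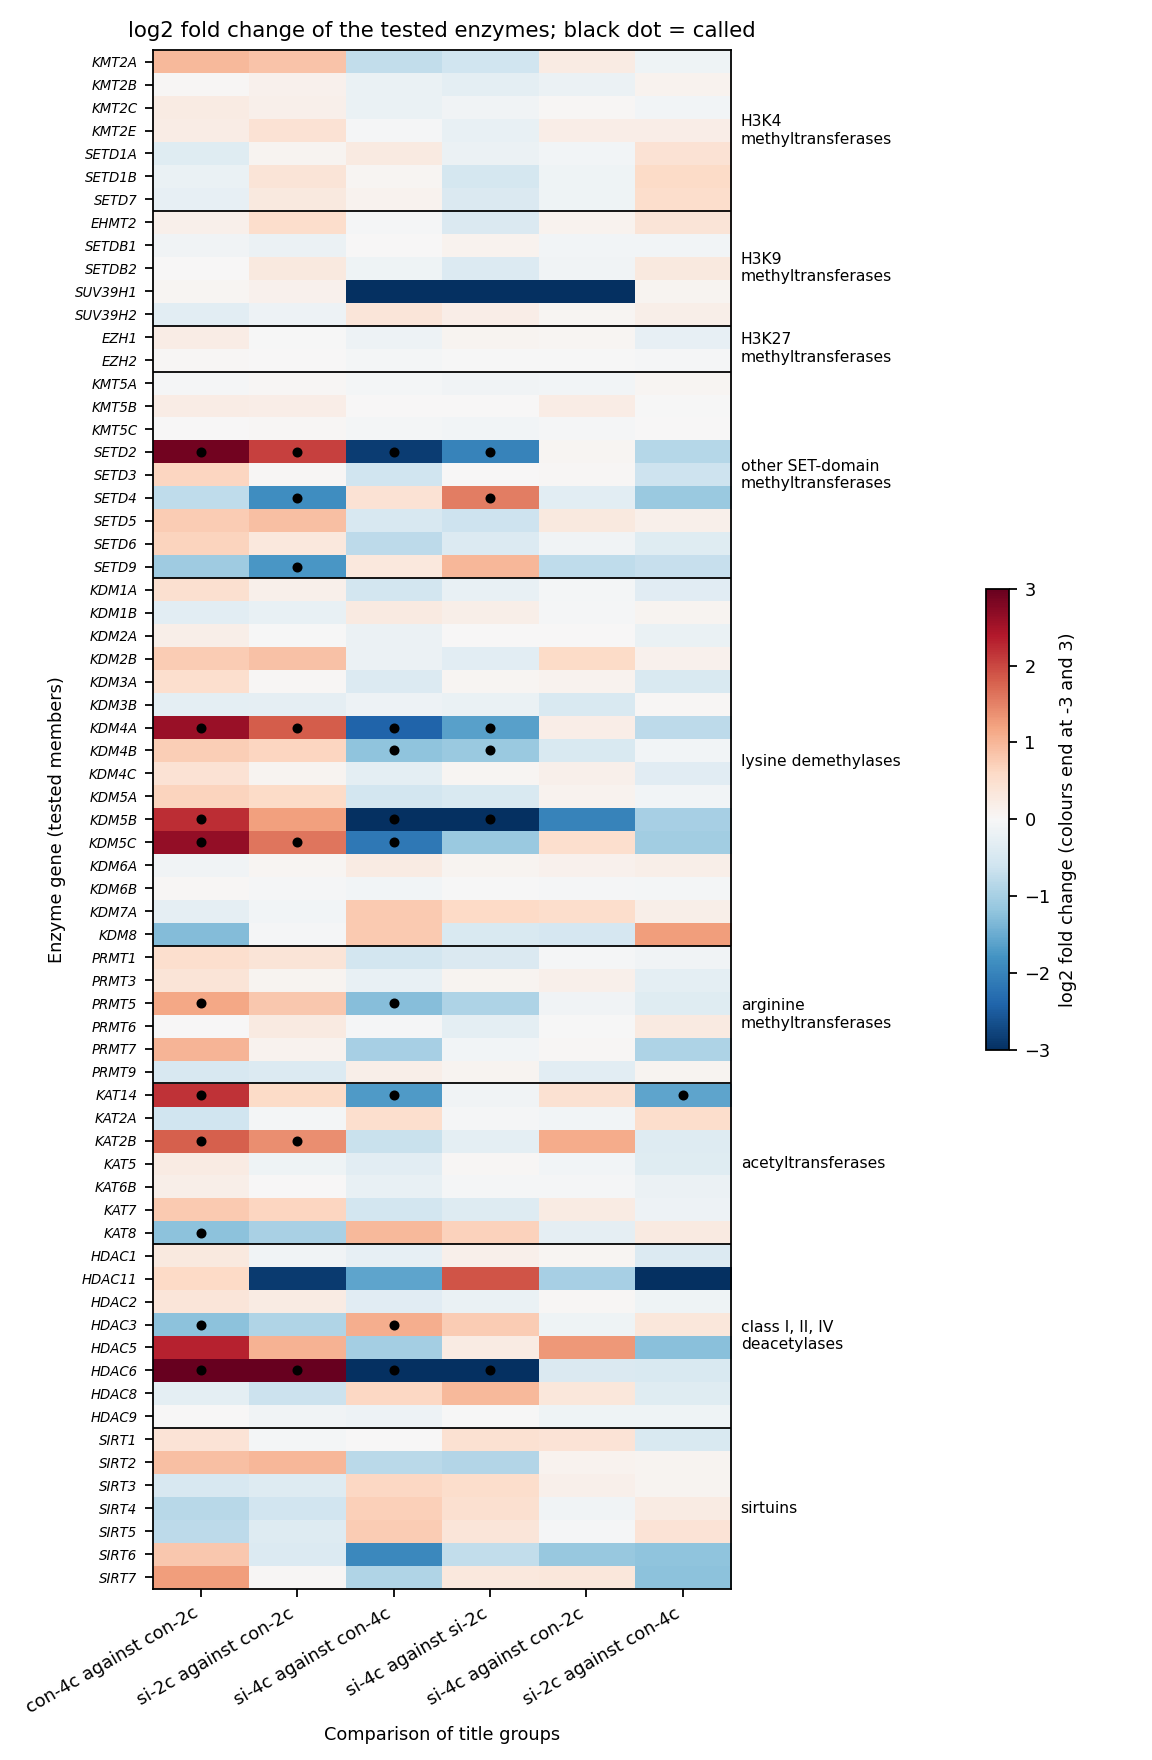
Heat map of log2 fold changes (colour scale ending at -3 and 3) of the 67 tested enzymes, 1 gene per row grouped by class, in 6 comparisons of the title groups (columns). Black dots mark calls. SETD2, KDM4A and HDAC6 carry dots in the first 4 columns, with red in con-4c versus con-2c and si-2c versus con-2c and blue in si-4c versus con-4c and si-4c versus si-2c, and the 2 crossed columns on the right hold 1 dot, KAT14.

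Among the other SET-domain methyltransferases, SETD2 (ENSSSCG00000011332, chr13:29884708-29996285 in Sscrofa11.1) had 4.64, 4.78 and 5.16 CPM in the con-2c libraries and 37.01, 35.6 and 36.3 in con-4c. The si-2c libraries had 17.9, 17.2 and 25.1 CPM, the si-4c libraries 4.26, 6.36 and 4.51. The libraries of con-2c and si-4c overlapped each other and lay below all libraries of si-2c, which in turn lay below con-4c. SETD2 was higher in con-4c relative to con-2c (log2 change 2.90 with standard error 0.17, edgeR adjusted p 1.03e-09) and in si-2c relative to con-2c (2.05, standard error 0.17, adjusted p 1.20e-07). It was lower in si-4c relative to con-4c (-2.85, standard error 0.17, adjusted p 1.14e-09) and relative to si-2c (-1.99, standard error 0.17, adjusted p 1.61e-07). The span of SETD2 shares 254 bases with a lncRNA gene, whose reads may be among its counts.

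The rest of this class changed less in the controls. SETD3, SETD5, SETD6 and KMT5B were higher in con-4c at edgeR adjusted p 0.00182, 0.00833, 0.00137 and 0.031, with log2 fold changes of 0.63, 0.76, 0.68 and 0.21, all below the 2-fold rule. KMT5B and its relatives KMT5A and KMT5C methylate H4K20, and KMT5A (log2 fold change -0.03, 95% interval -0.31 to 0.24) and KMT5C (0.02, -0.52 to 0.56) did not pass the test. SETD4 had 2.86, 2.17 and 1.78 CPM in con-2c against 1.02, 1.66 and 1.36 in con-4c, then 0.633, 0.589 and 0.643 in si-2c against 2.22, 1.56 and 1.67 in si-4c. Its si-2c libraries lay below all others, and con-4c lay below con-2c. SETD4 was lower in si-2c relative to con-2c (log2 change -1.86 with standard error 0.35, edgeR adjusted p 0.000619) and higher in si-4c relative to si-2c (1.54, standard error 0.35, adjusted p 0.00293), while con-4c versus con-2c gave -0.75 (adjusted p 0.0948). SETD9 had 1.399, 2.11 and 1.17 CPM in con-2c against 0.296, 0.961 and 0.975 in con-4c, then 0.3896, 0.616 and 0.386 in si-2c against 0.5995, 1.53 and 0.627 in si-4c, with the con-2c libraries above all con-4c and si-2c libraries. SETD9 was lower in si-2c relative to con-2c (log2 change -1.75 with standard error 0.56, edgeR adjusted p 0.0259). The SETD9 call was lost under library totals (adjusted p 0.0661) and without con-2c replicate 2, si-2c replicate 1 or si-2c replicate 3 (adjusted p 0.111, 0.0863 and 0.0797), and its adjusted p lay between 0.0166 and 0.111 over 16 alternatives.

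**Figure D2:**
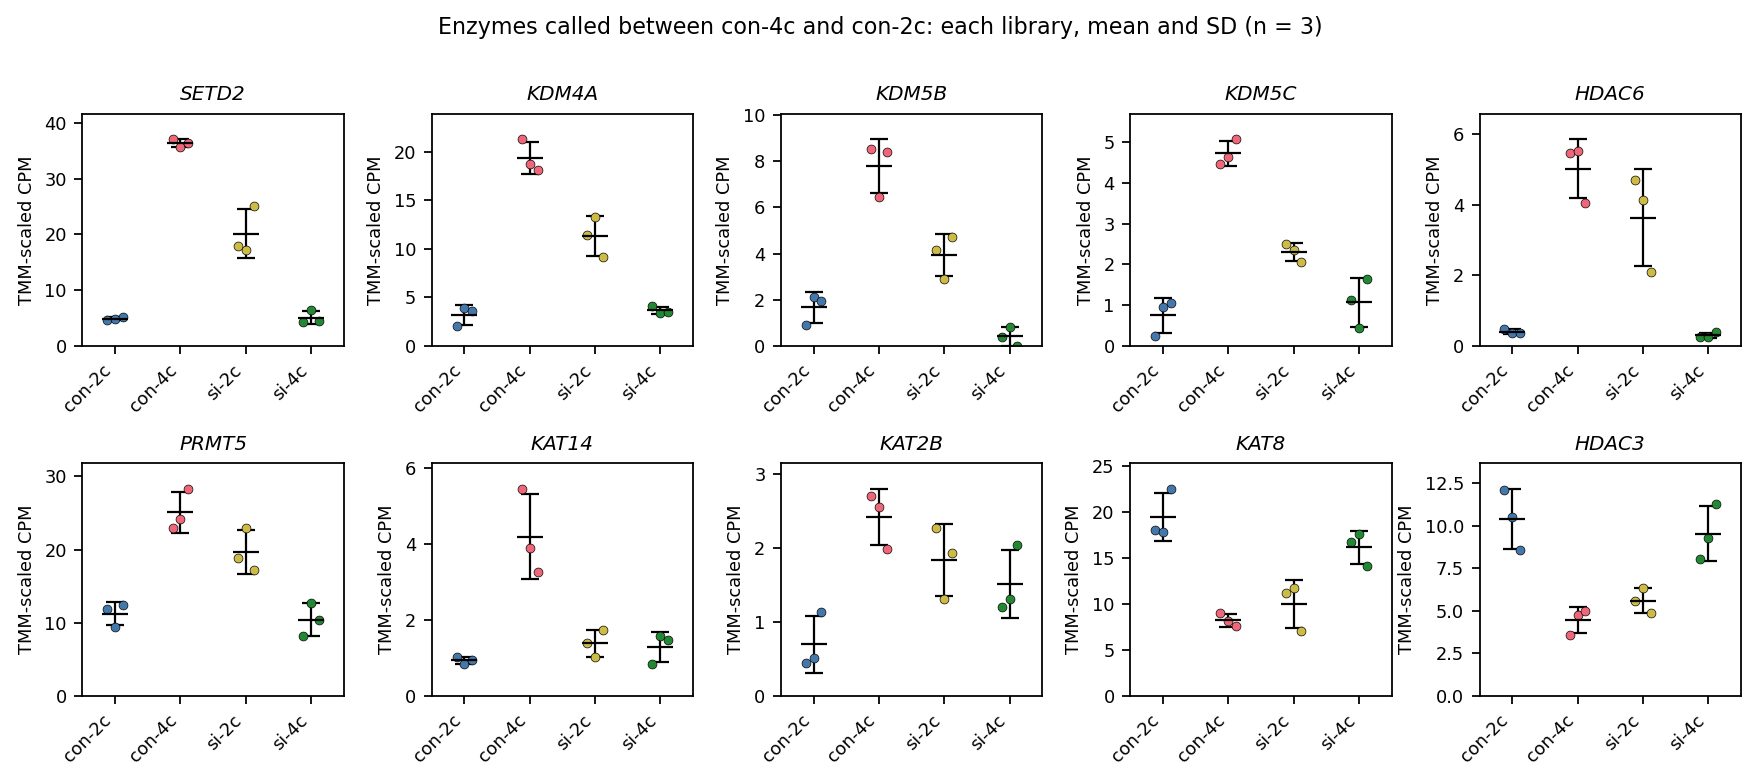
TMM-scaled CPM (linear axes from 0) of the 10 enzymes called between con-4c and con-2c, with 1 point per library, a horizontal line at the mean and bars of 1 SD (n = 3 per group). In SETD2, KDM4A, KDM5B, KDM5C, HDAC6 and PRMT5 the con-4c and si-2c points stand above the con-2c and si-4c points, in KAT8 and HDAC3 below them, and in KAT14 the con-4c points stand alone.

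The H3K4 methyltransferase class is named for the mark found at active promoters and enhancers. The grouping does not show that each gene in it, such as KMT2E, places that mark, and no enzyme activity was measured. None of the 7 was called between con-4c and con-2c, where 14.4% and 3.25% of all genes were, and 3 were higher below the 2-fold rule, against 20.7% of all genes higher without that rule. A class of 7 genes is too small to be read against these shares. KMT2A, the founding member of the mixed lineage leukaemia family, had 36.6, 36.02 and 43.1 CPM in con-2c against 79.7, 75.4 and 72.97 in con-4c, then 74.4, 71.7 and 62.5 in si-2c against 44.7, 46.9 and 46.2 in si-4c. The con-4c and si-2c libraries lay above all con-2c and si-4c libraries. Between the controls it differed by 0.98 on the log2 scale (SE 0.09, edgeR adjusted p 3.77e-07), just under the 2-fold rule, and 1.01 with DESeq2 and 1.24 under library totals, which called it, as did a minimum of 1 CPM and leaving out replicate 3 of con-2c or con-4c. KMT2C and KMT2E differed by 0.24 and 0.23 (edgeR adjusted p 0.0135 and 0.0216), which did not hold without some of the libraries (adjusted p up to 0.0588 and 0.0888). The span of KMT2E shares 29293 bases with another protein-coding gene.

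KMT2B, which deposits H3K4 trimethylation in the growing mouse oocyte, had 18.4, 21.4 and 30.7 CPM in con-2c against 22.1, 23.3 and 27.3 in con-4c, then 29.4, 25.2 and 23.1 in si-2c against 18.8, 19.9998 and 24.2 in si-4c. The groups overlapped in each pair. Its log2 fold change in the controls was 0.04 with a 95% interval of -0.31 to 0.40 (edgeR adjusted p 0.879). SETD1A, SETD1B and SETD7 gave -0.35, -0.20 and -0.25, none past an adjusted p of 0.05.

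The H3K9 methyltransferases, which build silent chromatin, held no call in any of the 7 comparisons with TMM factors, all libraries and the main count filter. A class of 5 genes is too small to be read against the shares of all genes (14.4% higher and 3.25% lower between the controls). Library totals called EHMT2 (-1.22, adjusted p 0.000779) and SETDB2 (-1.07, adjusted p 0.0182) in the interaction and SUV39H1 in si-4c versus con-4c (-3.81, adjusted p 0.0407) and against si-2c (-4.04, adjusted p 0.0316). SETDB1 (ENSSSCG00000006645, chr4:98259801-98293238), which silences retroelements, had 163, 192 and 169.7 CPM in con-2c against 164, 172 and 152 in con-4c, then 145, 150.0 and 166 in si-2c against 165, 164 and 167 in si-4c. All pairs of groups overlapped. The log2 fold change of SETDB1 was -0.10 in con-4c versus con-2c (95% interval -0.28 to 0.07), -0.18 in si-2c versus con-2c (-0.36 to -0.01) and 0.02 in si-4c versus con-4c (-0.15 to 0.20). Under library totals these 3 values were 0.17, 0.21 and -0.23, of opposite sign and none past an adjusted p of 0.05. The span of SETDB1 shares 704 bases with CERS2. EHMT2, also known as G9a, the enzyme of H3K9 mono- and dimethylation, had 6.997, 7.54 and 10.2 CPM in con-2c against 8.42, 9.01 and 10.01 in con-4c, then 12.4, 11.9 and 11.4 in si-2c against 9.38, 9.02 and 8.27 in si-4c, and was higher in si-2c relative to con-2c by less than the 2-fold rule (log2 change 0.53 with standard error 0.16, edgeR adjusted p 0.0169), which was lost without con-2c replicate 1 or 2 or si-2c replicate 1 (adjusted p up to 0.0914).

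SUV39H2, an H3K9 methyltransferase of constitutive heterochromatin, had 195, 199.6 and 191 CPM in con-2c against 157, 159 and 154 in con-4c, then 178, 169.7 and 183 in si-2c against 204, 201 and 201 in si-4c. The con-4c libraries were the lowest and did not overlap any other group. SUV39H2 was lower in con-4c relative to con-2c (log2 change -0.32 with standard error 0.07, edgeR adjusted p 0.00117) and higher in si-4c relative to con-4c (0.37, standard error 0.07, adjusted p 0.000328), changes below the 2-fold rule that did not pass the test under library totals (log2 fold change -0.04 and adjusted p 0.696 in the controls, where the range over alternatives was 1.25e-06 to 0.696). Its paralogue SUV39H1 had 0.509, 0.713 and 0.246 CPM in con-2c against 0.428, 1.09 and 0 in con-4c, then 0.511, 0.375 and 0.729 in si-2c against 0.1199, 0 and 0 in si-4c, where 0.120 CPM stands for 4 counts and 0 for none. The con-2c and si-2c libraries lay above si-4c, and con-4c spanned the range of all of them. SUV39H1 gave a log2 fold change of -3.56 in si-4c versus con-4c (SE 1.40, edgeR adjusted p 0.0574), and -3.65 in si-4c versus si-2c (adjusted p 0.061). Neither was called, but both passed the thresholds with DESeq2, under library totals, with no count filter and without con-4c replicate 3 or si-4c replicate 1. SETDB2 gave 0.02 between the controls (95% interval -0.46 to 0.50).

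**Figure D3:**
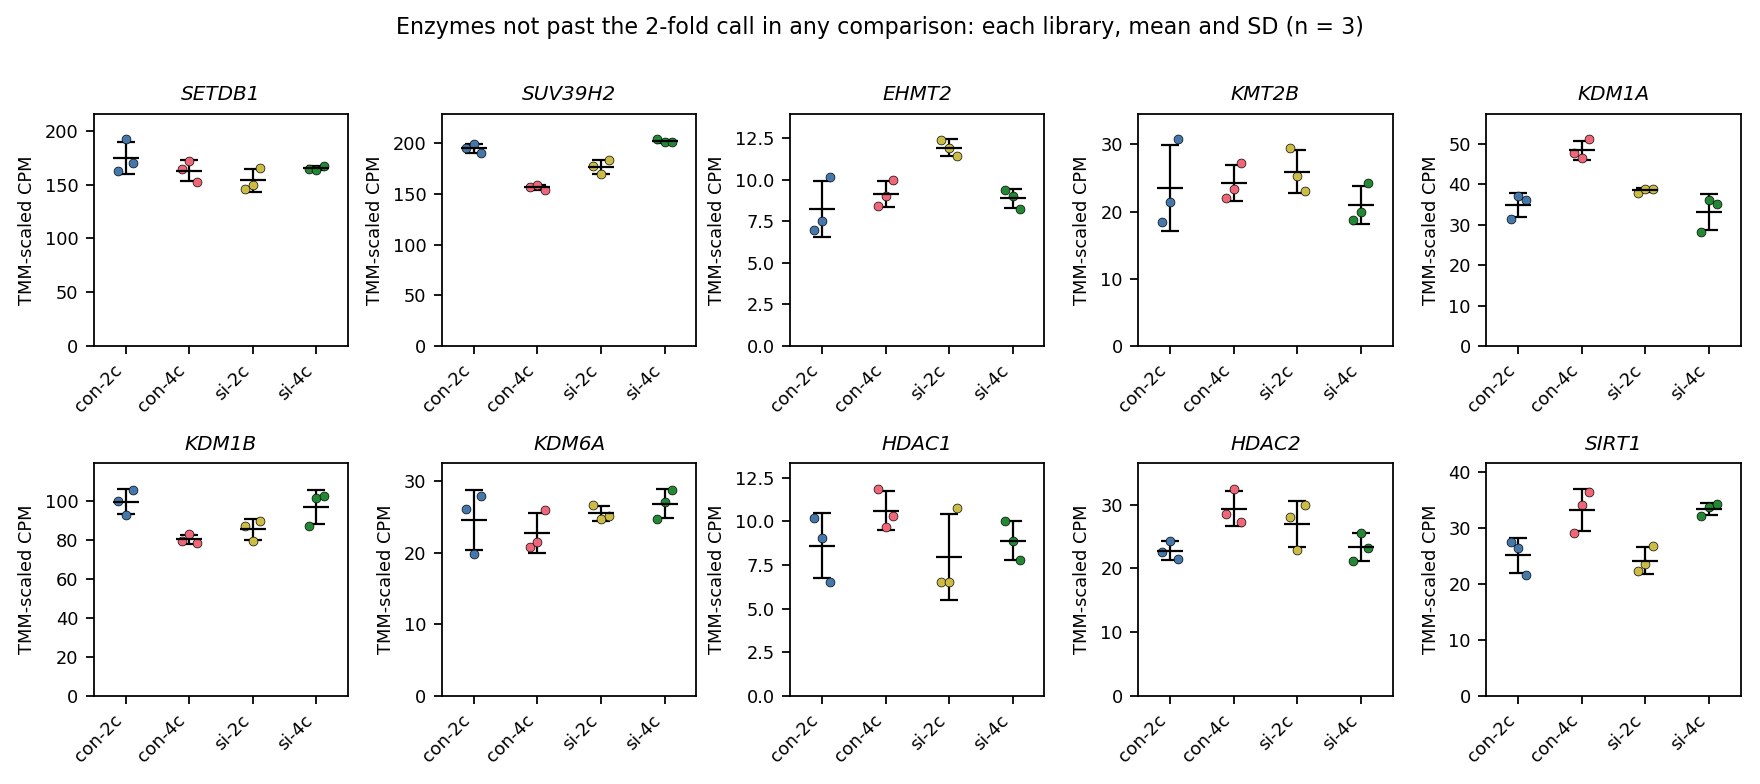
TMM-scaled CPM (linear axes from 0) of 10 enzymes called in none of the comparisons under TMM scaling, with 1 point per library, the mean as a line and bars of 1 SD (n = 3 per group). The SETDB1 points lie between 145 and 192 CPM in all groups, and in SUV39H2 the con-4c points lie between 154 and 159, below the other groups.

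The H3K27 methyltransferases EZH1 and EZH2 are the alternative catalytic subunits of Polycomb repressive complex 2 (PRC2), which marks silent developmental genes. EZH2 (ENSSSCG00000028840, chr9:109384976-109450943) had 27.1, 27.9 and 33.3 CPM in con-2c against 28.7, 34.02 and 27.8 in con-4c, then 29.3, 28.2 and 30.9 in si-2c against 27.9, 26.9 and 32.5 in si-4c. EZH1 (ENSSSCG00000017382, chr12:20107744-20139764, 311 bases shared with a lncRNA gene) had 32.2, 28.5 and 27.04 CPM in con-2c against 34.9, 31.4 and 35.4 in con-4c, then 26.95, 26.8 and 32.6 in si-2c against 32.6, 29.6 and 29.9 in si-4c. The groups of both genes overlapped in every pair. The log2 fold change of EZH2 was 0.04 in con-4c versus con-2c (95% interval -0.21 to 0.28), 0.00 in si-2c versus con-2c (-0.24 to 0.25) and -0.05 in si-4c versus con-4c (-0.30 to 0.19). For EZH1 the values were 0.21 (-0.02 to 0.44), -0.02 (-0.25 to 0.21) and -0.14 (-0.37 to 0.09), none past an adjusted p of 0.05. Library totals moved both genes with the median of all genes. They gave EZH1 0.49, 0.38 and -0.40 in the same order (adjusted p 0.0036, 0.018 and 0.0126; the first ranged from 0.0036 to 0.458 over alternatives) and EZH2 0.30, 0.39 and -0.31 (adjusted p 0.107, 0.0346 and 0.0975).

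Of 9 listed partners of EZH1 and EZH2 in PRC2, 8 were tested, and 3 of them, EED, SUZ12 and AEBP2, were called higher in con-4c relative to con-2c, against 14.4% of all genes. The median over the 8 was -0.19. EED, which reads H3K27 trimethylation and is needed for PRC2 activity, had 1.21, 2.02 and 0.8296 CPM in con-2c against 12.8, 16.9 and 16.7 in con-4c, then 8.59, 7.41 and 7.53 in si-2c against 1.41, 0.838 and 1.61 in si-4c. SUZ12, the core scaffold of the complex, had 10.1, 8.14 and 6.51 CPM in con-2c against 22.8, 20.1 and 26.1 in con-4c, then 17.8, 16.4 and 20.2 in si-2c against 9.89, 9.05 and 8.21 in si-4c. In both genes every con-4c and si-2c library lay above every con-2c and si-4c library. EED rose by a log2 fold change of 3.51 (SE 0.29, edgeR adjusted p 5.20e-08) and SUZ12 by 1.48 (SE 0.16, adjusted p 1.69e-06) in con-4c versus con-2c, and in si-4c versus con-4c the values were -3.58 (adjusted p 4.07e-08) and -1.34 (adjusted p 4.69e-06).

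AEBP2, an accessory subunit, had 0.382, 0.713 and 0.953 CPM in con-2c against 4.31, 4.87 and 4.09 in con-4c, then 1.39, 0.7495 and 1.89 in si-2c against 1.68, 0.578 and 1.01 in si-4c. Only the con-4c libraries stood apart in AEBP2, which was the one listed partner called in si-2c versus con-4c (log2 change -1.71 with standard error 0.42, edgeR adjusted p 0.0179). RBBP7 and JARID2, a histone-binding subunit and a targeting subunit, had log2 fold changes of -0.63 (adjusted p 4.38e-06) and -0.46 (adjusted p 0.000819) between the controls, below the 2-fold rule. MTF2, PHF1 and PHF19, subunits of the Polycomb-like family, gave -0.31, -0.95 and -0.08 (adjusted p 0.00377, 0.044 and 0.499). Without a minimum fold 3 of the 8 partners were thus higher and 4 lower, against 20.7% and 15.1% of all genes.

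**Figure D4:**
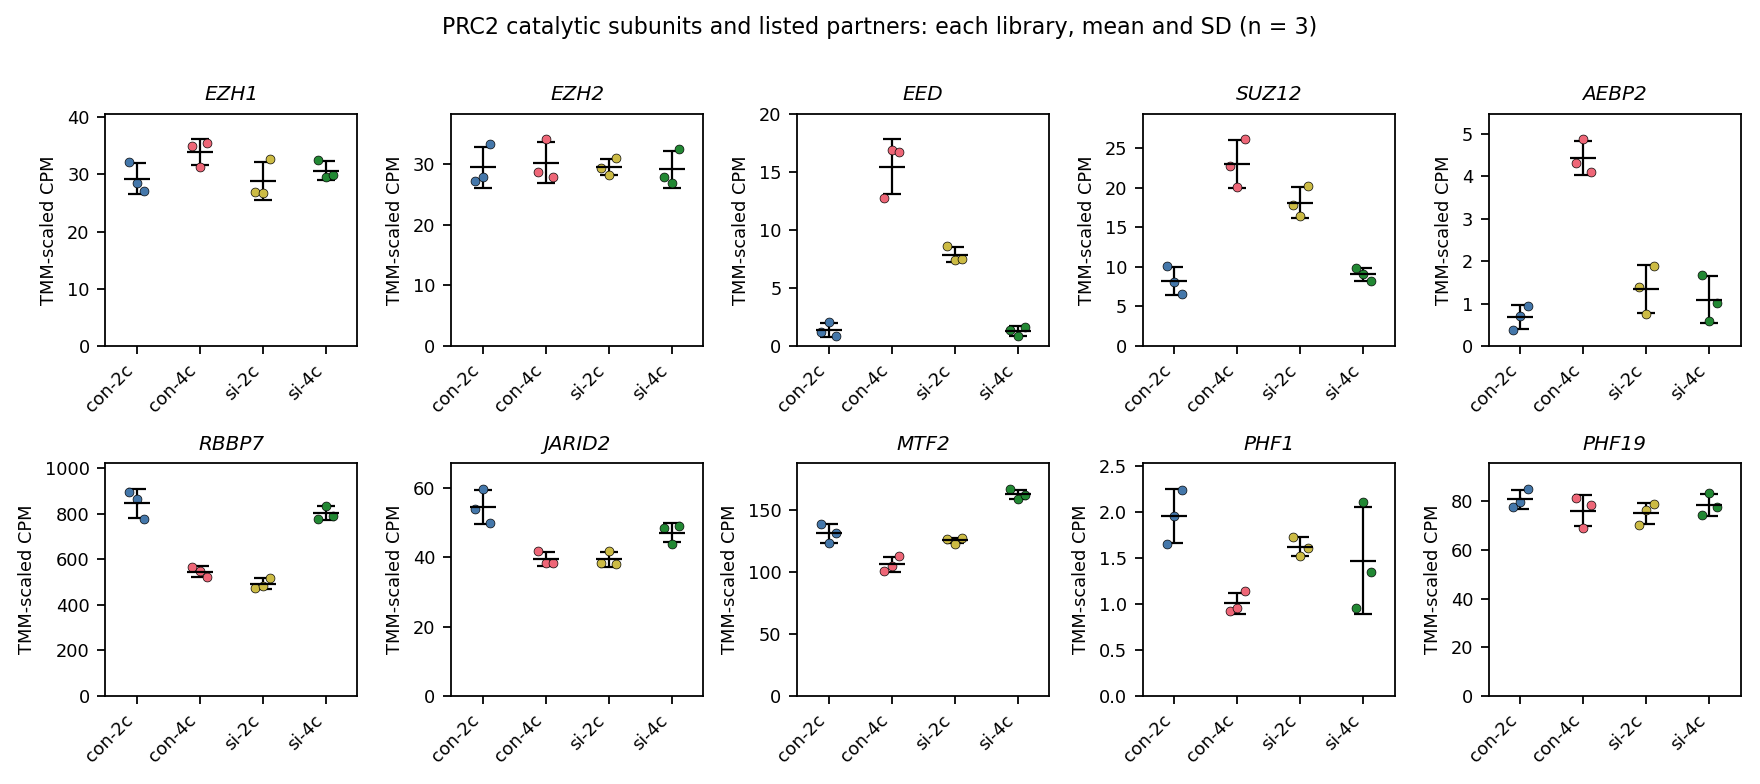
TMM-scaled CPM (linear axes from 0) of the PRC2 catalytic subunits EZH1 and EZH2 and of the 8 listed partners in the table, with 1 point per library, the mean as a line and bars of 1 SD (n = 3 per group). EZH2 points lie between 26.9 and 34.0 CPM in all groups, while EED and SUZ12 points are high in con-4c and si-2c and low in con-2c and si-4c.

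Of 16 lysine demethylases tested, 3 were called between the controls, all higher in con-4c, against 14.4% of all genes higher and 3.25% lower. KDM4A (ENSSSCG00000026449, chr6:167597954-167642381), which removes H3K9 and H3K36 methylation, had 2.004, 3.95 and 3.595 CPM in con-2c and 21.2, 18.7 and 18.1 in con-4c. The si-2c libraries had 11.4, 13.3 and 9.18 CPM, the si-4c libraries 4.11, 3.35 and 3.49. As for SETD2, the si-2c libraries lay between con-4c and the overlapping con-2c and si-4c libraries. KDM4A was higher in con-4c relative to con-2c (log2 change 2.60 with standard error 0.22, edgeR adjusted p 8.43e-08) and in si-2c relative to con-2c (1.82, standard error 0.22, adjusted p 7.08e-06), and lower in si-4c relative to con-4c (-2.41, standard error 0.22, adjusted p 1.79e-07).

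KDM5B (ENSSSCG00000010928, chr10:24739115-24831537) and KDM5C remove H3K4 methylation, and KDM5C is X-linked. KDM5B had 0.922, 2.14 and 1.94 CPM in con-2c against 8.52, 6.46 and 8.38 in con-4c, then 4.16, 2.92 and 4.696 in si-2c against 0.3897, 0.838 and 0 in si-4c. The con-4c libraries were the highest and the si-4c libraries the lowest, with no overlap between any 2 groups. KDM5B was higher in con-4c relative to con-2c (log2 change 2.22 with standard error 0.51, edgeR adjusted p 0.00241), but lower in si-4c relative to con-4c (-4.23, standard error 0.58, adjusted p 2.21e-05) and relative to si-2c (-3.24, standard error 0.58, adjusted p 0.000401). The si-4c means rest on 13, 29 and 0 counts, and leaving out si-4c replicate 2 or 3 moved the value against con-4c to -5.29 or -3.65 and that against si-2c to -4.31 or -2.67, with the call kept. For KDM5B si-2c versus con-2c missed the threshold (1.23, standard error 0.50, adjusted p 0.0766) and passed it under library totals, with a minimum of 1 CPM, with no count filter and without si-4c replicate 2 or 3. KDM5C had 0.254, 0.9503 and 1.04 CPM in con-2c against 4.47, 4.64 and 5.07 in con-4c, then 2.51, 2.36 and 2.06 in si-2c against 1.14, 0.434 and 1.64 in si-4c. Its con-4c libraries lay above all others, and si-2c above con-2c and si-4c. KDM5C was higher in con-4c relative to con-2c (log2 change 2.65 with standard error 0.46, edgeR adjusted p 0.000225) and in si-2c relative to con-2c (1.61, standard error 0.45, adjusted p 0.0128), the latter lost without con-2c replicate 1 (1.20, adjusted p 0.051; range over alternatives 0.00295 to 0.051), and lower in si-4c relative to con-4c (-2.14, standard error 0.45, adjusted p 0.00113).

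KDM5A, a further H3K4 demethylase of this family, had 95.3, 93.2 and 114 CPM in con-2c against 154, 165 and 160.5 in con-4c, then 169, 147 and 137 in si-2c against 102, 112 and 114 in si-4c. Its con-4c and si-2c libraries lay above con-2c and si-4c, with a log2 fold change of 0.66 between the controls (SE 0.10, edgeR adjusted p 3.70e-05). KDM4B, an H3K9 demethylase, had 1.91, 2.73 and 3.66 CPM in con-2c against 4.802, 4.77 and 4.26 in con-4c, then 4.02, 4.68 and 4.27 in si-2c against 2.098, 1.88 and 2.03 in si-4c. The si-4c libraries of KDM4B did not overlap con-4c or si-2c, and KDM4B was lower in si-4c relative to con-4c (log2 change -1.20 with standard error 0.25, edgeR adjusted p 0.001) and relative to si-2c (-1.11, standard error 0.24, adjusted p 0.00247), with 0.74 between the controls (adjusted p 0.0255, up to 0.126 over alternatives).

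The flavin-dependent H3K4 demethylase KDM1A had 31.4, 37.03 and 36.01 CPM in con-2c against 47.7, 46.5 and 51.1 in con-4c, then 37.9, 38.8 and 38.8 in si-2c against 28.2, 36.2 and 35.1 in si-4c. The con-4c libraries were the highest, and KDM1A was higher in con-4c relative to con-2c (log2 change 0.48 with standard error 0.10, edgeR adjusted p 0.00168), but lower in si-4c relative to con-4c (-0.55, standard error 0.10, adjusted p 0.000544), both below the 2-fold rule. KDM6A, an X-linked H3K27 demethylase, had 26.1, 19.8 and 27.9 CPM in con-2c against 20.8, 21.4 and 25.99 in con-4c, then 26.7, 24.7 and 25.1 in si-2c against 24.7, 27.1 and 28.7 in si-4c. Its groups overlapped in every pair, with -0.11 between the controls (95% interval -0.39 to 0.16) and 0.15 under library totals. The other H3K27 demethylase, KDM6B, gave 0.04 (-0.29 to 0.38). KDM2B, KDM3A and KDM4C were higher in con-4c by 0.76, 0.50 and 0.43 (edgeR adjusted p 0.0118, 0.000528 and 0.0328, up to 0.153 over alternatives for KDM4C), and KDM1B was lower (-0.31, adjusted p 0.00922). KDM2A, KDM3B, KDM7A and KDM8 did not pass the test in the controls (log2 fold changes 0.18, -0.30, -0.26 and -1.29), except that KDM8 was called lower without con-4c replicate 2 (-2.88, adjusted p 0.0391).

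Arginine methyltransferases modify histones and many RNA-binding proteins. PRMT5 (ENSSSCG00000030045, chr7:76110956-76119619), the main enzyme of symmetric dimethylation, had 11.8, 9.44 and 12.4 CPM in con-2c against 22.9, 24.1 and 28.2 in con-4c, then 18.8, 22.9 and 17.2 in si-2c against 8.15, 12.7 and 10.3 in si-4c. The con-4c and si-2c libraries lay above all con-2c and si-4c libraries. PRMT5 was higher in con-4c relative to con-2c (log2 change 1.16 with standard error 0.17, edgeR adjusted p 3.71e-05), lower in si-4c relative to con-4c (-1.27, standard error 0.17, adjusted p 1.48e-05) and higher in si-2c relative to con-2c by less than the 2-fold rule (0.81, standard error 0.17, adjusted p 0.00146). PRMT1, the main enzyme of asymmetric dimethylation, followed the same order of groups with 66.03, 60.7 and 68.3 CPM in con-2c against 97.7, 88.7 and 91.7 in con-4c, then 80.9, 89.4 and 86.3 in si-2c against 63.2, 64.3 and 62.1 in si-4c and a log2 fold change of 0.51 between the controls (adjusted p 6.83e-05). PRMT9 was lower in con-4c (-0.48, adjusted p 0.00693), and PRMT3, PRMT6 and PRMT7 gave 0.39, 0.01 and 1.02 with adjusted p 0.12, 0.954 and 0.086. Library totals called PRMT7 (1.27, adjusted p 0.0394), whose span shares 7618 bases with SMPD3.

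Among the acetyltransferases, KAT14 (ENSSSCG00000007092, chr17:26484957-26521532), a subunit of the ATAC complex, had 1.02, 0.831 and 0.953 CPM in con-2c against 5.43, 3.88 and 3.25 in con-4c, then 1.39, 1.02 and 1.74 in si-2c against 0.839, 1.56 and 1.46 in si-4c. Only con-4c stood apart, and the other 3 groups overlapped. KAT14 was higher in con-4c relative to con-2c (log2 change 2.16 with standard error 0.35, edgeR adjusted p 0.000102) and was lower in si-4c (-1.70, standard error 0.34, adjusted p 0.000772) and in si-2c (-1.59, standard error 0.33, adjusted p 0.0062) relative to con-4c. It was the only member called in a crossed comparison, and that call was lost without con-4c replicate 1, the highest library (-1.36, adjusted p 0.0546; range over alternatives 0.000199 to 0.0546). The span of KAT14 shares 596 bases with PET117, so reads of the 2 genes may be mixed. KAT2B, also called PCAF, had 0.445, 0.505 and 1.14 CPM in con-2c against 2.697, 2.55 and 1.98 in con-4c, then 2.26, 1.31 and 1.93 in si-2c against 1.199, 1.301 and 2.03 in si-4c. Its con-2c libraries lay below all other libraries, and KAT2B was higher in con-4c (log2 change 1.79 with standard error 0.41, edgeR adjusted p 0.00245) and in si-2c (1.40, standard error 0.41, adjusted p 0.0157) relative to con-2c, the latter lost without con-2c replicate 1 or 2 or si-2c replicate 1 (adjusted p 0.0727, 0.0714 and 0.0682; range over alternatives 0.00285 to 0.0727).

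KAT8 (ENSSSCG00000031247, chr3:17362326-17373110), the H4K16 acetyltransferase also called MOF, ran the other way, with 18.002, 17.8 and 22.4 CPM in con-2c against 8.98, 8.11 and 7.57 in con-4c, then 11.2, 11.7 and 7.01 in si-2c against 16.7, 17.5 and 14.1 in si-4c. The con-4c and si-2c libraries lay below all con-2c and si-4c libraries. KAT8 was lower in con-4c relative to con-2c (log2 change -1.24 with standard error 0.18, edgeR adjusted p 3.99e-05), and -0.96 in si-2c versus con-2c and 0.97 in si-4c versus con-4c were just under the 2-fold rule (adjusted p 0.000529 and 0.000434). Under library totals the control value was -0.98 and no longer past that rule. KAT7, or HBO1, which acetylates H3 and H4 at replication origins and genes, had 33.1, 32.6 and 40.9 CPM in con-2c against 59.9, 65.5 and 59.7 in con-4c, then 51.5, 55.7 and 58.6 in si-2c against 41.5, 39.97 and 45.1 in si-4c, with con-4c and si-2c above con-2c and si-4c (log2 change 0.80 with standard error 0.10, edgeR adjusted p 9.34e-06 between the controls). KAT2A, KAT5 and KAT6B gave -0.59, 0.25 and 0.18, none past an adjusted p of 0.05.

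Of the class I, II and IV deacetylases, HDAC6 (ENSSSCG00000025545, chrX:42917911-42941894), which works mainly on tubulin and other cytoplasmic proteins, had the widest difference among the calls of this class. It had 0.477, 0.356 and 0.369 CPM in con-2c against 5.46, 5.53 and 4.06 in con-4c, then 4.699, 4.12 and 2.08 in si-2c against 0.2398, 0.2601 and 0.388 in si-4c. Every con-4c and si-2c library lay above every con-2c and si-4c library. HDAC6 was higher in con-4c (log2 change 3.64 with standard error 0.37, edgeR adjusted p 6.84e-07) and si-2c (3.17, standard error 0.37, adjusted p 4.83e-06) relative to con-2c, and lower in si-4c relative to con-4c (-4.07, standard error 0.38, adjusted p 2.59e-07) and relative to si-2c (-3.60, standard error 0.38, adjusted p 1.69e-06). HDAC3 (ENSSSCG00000014388, chr2:143273188-143287421), the deacetylase of the NCOR and SMRT corepressors, ran the other way with 12.1, 10.5 and 8.57 CPM in con-2c against 3.59, 4.74 and 5.003 in con-4c, then 5.58, 6.34 and 4.87 in si-2c against 8.06, 9.25 and 11.3 in si-4c. The con-4c and si-2c libraries lay below all con-2c and si-4c libraries. HDAC3 was lower in con-4c relative to con-2c (log2 change -1.22 with standard error 0.20, edgeR adjusted p 0.000107) and higher in si-4c relative to con-4c (1.10, standard error 0.20, adjusted p 0.000302). Both values fell under the 2-fold rule with library totals (-0.95 and 0.85), the second also without con-4c replicate 1 or si-4c replicate 3 (0.97 each).

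The class I enzymes HDAC1 and HDAC2 are the catalytic core of the SIN3, NuRD and CoREST complexes. HDAC1 had 10.2, 9.06 and 6.54 CPM in con-2c against 11.8, 9.67 and 10.3 in con-4c, then 6.501, 6.53 and 10.8 in si-2c against 10.01, 8.87 and 7.79 in si-4c, and its groups overlapped between con-2c and con-4c (0.30, 95% interval -0.15 to 0.75), with 0.59 and an adjusted p of 0.0414 under library totals. HDAC2 had 22.5, 24.3 and 21.4 CPM in con-2c against 28.5, 32.4 and 27.2 in con-4c, then 28.1, 22.9 and 29.9 in si-2c against 21.1, 25.6 and 23.3 in si-4c, with con-4c above con-2c (log2 change 0.37 with standard error 0.12, edgeR adjusted p 0.0262). That difference in HDAC2 did not pass without replicate 1 or 3 of con-2c or 1 or 2 of con-4c (0.29 and adjusted p 0.129 without con-4c replicate 2; range over alternatives 0.00131 to 0.129). HDAC8, a deacetylase of cohesin, had 3.59, 3.801 and 1.69 CPM in con-2c against 1.87, 2.48 and 3.09 in con-4c, then 1.31, 1.71 and 2.77 in si-2c against 3.42, 4.71 and 3.37 in si-4c and differed between si-4c and si-2c by 0.98 (edgeR adjusted p 0.0418, not passed in 9 of 17 alternatives), with overlap between the control groups. HDAC9 gave 0.02 between the controls (-0.26 to 0.30), and HDAC5 and HDAC11 had at most 0.629 and 0.828 CPM in any library.

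The sirtuins remove acyl groups with NAD as cofactor, SIRT1, SIRT6 and SIRT7 in the nucleus and SIRT3, SIRT4 and SIRT5 in mitochondria. With TMM factors and all libraries none was called between any pair of groups, while SIRT7 was called higher in con-4c relative to con-2c under library totals (1.55, adjusted p 0.0281) and without con-2c replicate 2 or con-4c replicate 2 (1.66 and 1.53, adjusted p 0.0476 and 0.0463). Between the controls 14.4% of all genes were called higher and 3.25% lower, and a class of 7 genes is too small to be read against such shares. SIRT1 (ENSSSCG00000010235, chr14:71091167-71126351, 252 bases shared with HERC4) had 27.5, 26.4 and 21.6 CPM in con-2c against 29.2, 34.1 and 36.4 in con-4c, then 22.2, 23.5 and 26.8 in si-2c against 32.2, 33.8 and 34.3 in si-4c. Here the 4c titles stood above the 2c titles in both treatments, a grouping that SETD2, KDM4A and HDAC6 did not show. SIRT1 was higher in con-4c relative to con-2c (log2 change 0.40 with standard error 0.12, edgeR adjusted p 0.0135) and in si-4c relative to si-2c (0.47, standard error 0.12, adjusted p 0.00635), and lower in si-2c relative to con-4c (-0.46, standard error 0.12, adjusted p 0.0235). Its si-4c versus con-4c value was 0.01 (95% interval -0.24 to 0.26). Under library totals the differences of si-4c from si-2c and of si-2c from con-4c did not pass the test, and the control difference was lost without con-2c replicate 3 (0.27, adjusted p 0.0982, the highest of a range from 0.000253 over alternatives) or con-4c replicate 3.

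SIRT4, whose span shares 13600 bases with a lncRNA gene, had 15.9, 14.6 and 14.96 CPM in con-2c against 9.47, 7.68 and 8.35 in con-4c, then 9.47, 10.1 and 10.7 in si-2c against 14.1, 13.4 and 14.7 in si-4c, with con-4c and si-2c below con-2c and si-4c (log2 change -0.83 with standard error 0.13, edgeR adjusted p 7.78e-05 between the controls). SIRT3 gave -0.47 between the controls (adjusted p 0.0509) and 0.62 in si-4c versus con-4c (adjusted p 0.0115), the latter lost under library totals and without con-4c replicate 1 (adjusted p up to 0.157). SIRT5 and SIRT7 gave -0.79 and 1.26, with adjusted p 0.273 and 0.0693. SIRT2 and SIRT6 gave 0.91 and 0.80, with 95% intervals of -2.68 to 4.50 and -2.33 to 3.94.

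Under the title 2c, si-2c was set beside con-2c to ask what CCNB2 depletion changed in these libraries. The called members were SETD2, KDM4A, HDAC6, KDM5C and KAT2B, 5 genes higher in si-2c, and SETD4 and SETD9, 2 genes lower, against 10.7% and 1.8% of all genes tested. Without the minimum fold 15 members were higher and 6 lower, against 16.6% and 12.3%, the members' shares being 7.46% and 2.99% past the 2-fold rule and 22.4% and 8.96% without it. The 10 members higher below the 2-fold rule included KMT2A, KAT7, PRMT5, PRMT1 and EHMT2, with log2 fold changes of 0.20 to 0.91. The median was 0.08 over the members and 0.12 over all genes. Library totals moved the median of all genes by 0.39 and gave 12 members higher and 1 lower, against 16.8% and 0.322% of all genes under that scaling. Library totals without the minimum fold gave 37 higher and 2 lower, against 33.6% and 3.77% of all genes. Of the 6 lower with TMM factors, SETD9, PRMT9, HDAC3 and SIRT4 did not pass under library totals. Its further calls were KMT2A, SETD5, KDM2B, KDM4B, KDM5B, PRMT5 and KAT7. Of the 14 under the 2-fold rule, 9 passed in all 17 alternatives, and EHMT2, KMT5B and PRMT9 did not without some of the libraries.

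Under the title 4c, si-4c was set beside con-4c. Of the members, 8 were called lower in si-4c, namely SETD2, KDM4A, HDAC6, PRMT5, KAT14, KDM5C, KDM5B and KDM4B, and 1, HDAC3, higher, against 15.8% and 3.12% of all genes. Without the minimum fold 19 were lower and 7 higher, against 21.7% and 15.1%. The 11 lower below the 2-fold rule included KMT2A, KDM1A, PRMT1, KAT7 and HDAC2, and the 6 higher were SUV39H2, KDM1B, KDM7A, KAT8, SIRT3 and SIRT4. The median was -0.19 over the members and -0.11 over all genes. Library totals moved the median of all genes by -0.26 and gave 11 members lower and 0 higher, against 18.7% and 1.29% of all genes under that scaling. Library totals without the minimum fold gave 27 lower and 3 higher, against 29.3% and 7.64% of all genes. Of the 7 higher with TMM factors, SUV39H2, KDM1B, KDM7A and SIRT3 did not pass under library totals, while all 19 that were lower did. It further called SUV39H1, SETD6 and PRMT7. Of the 17 under the 2-fold rule, 10 passed in all 17 alternatives, and HDAC2, KAT6B, KDM1B, KMT2C and SIRT3 did not without some of the libraries. This comparison and that of the controls share the con-4c libraries, so their opposite signs are not independent.

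Within the si embryos, si-4c was set beside si-2c. SETD2, KDM4A, HDAC6, KDM5B and KDM4B, 5 members, were lower in si-4c and SETD4, 1 member, was higher, against 11.9% and 1.47% of all genes. Without the minimum fold 13 were lower and 9 higher, against 16.9% and 12.1%. The median was -0.07 over the members and -0.13 over all genes. Of the 9 members higher, SETD4 alone stayed past the adjusted p under library totals, while all 13 that were lower did. SUV39H2, higher by 0.19 with TMM factors, changed sign under library totals (-0.19). Library totals gave 34 lower and 1 higher without the minimum fold, against 33.1% and 3.58% of all genes, and further called SUV39H1, KDM5C and PRMT5. Of the 16 under the 2-fold rule, 5 passed in all 17 alternatives, and SUV39H2, KMT2E, SETD5, SETD6, KDM7A, HDAC8 and SIRT3 did not without some of the libraries.

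The crossed comparisons paired si-4c with con-2c and si-2c with con-4c. In si-4c versus con-2c 0 of 67 members were called by edgeR in either direction, against 0.0333% (higher) and 0.3% (lower) of all genes, and without the minimum fold 0 members against 0.106% and 0.567%. At an unadjusted p below 0.05 there were 8 higher and 4 lower of 67, against 11.3% of all genes in either direction, and DESeq2 called 0 higher and 1 lower, KDM5B, whose edgeR values were -2.01, standard error 0.59, adjusted p 0.168. In si-2c versus con-4c 0 members were called higher and 1 lower, KAT14, against 0.161% and 1.63%, and without the minimum fold 0 were higher and 6 lower, against 2.22% and 5.32%. At an unadjusted p below 0.05 there were 6 higher and 15 lower of 67, against 19.3% of all genes in either direction, and DESeq2 called 0 higher and 2 lower, KAT14 and SETD4, the latter at -1.11, standard error 0.35, adjusted p 0.0662 with edgeR. The 6 were KAT14, SETD2, SETD3, KDM3A, KDM4A and SIRT1, so SETD2 and KDM4A were lower in si-2c relative to con-4c (log2 fold change -0.85 and -0.78, edgeR adjusted p 0.00247 and 0.025) as well as higher relative to con-2c. Of the 6, SETD3, KDM3A, KDM4A and SIRT1 did not pass under library totals, while KMT2E (0.32, adjusted p 0.0264) and SUV39H2 (0.30, adjusted p 0.0214) became higher, so that scaling gave 2 higher and 2 lower without the minimum fold, against 4.98% and 3.45% of all genes. KDM4A, SETD3 and SIRT1 also failed without some of the libraries (adjusted p up to 0.117, 0.0629 and 0.126 over alternatives), and SETD2 was called without si-2c replicate 3. The median over the members was -0.02 in si-4c versus con-2c and -0.09 in si-2c versus con-4c, where all genes gave -0.00 and -0.02. Under library totals the second value was 0.029, with the members 0.08 below all genes under both scalings.

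**Figure D5:**
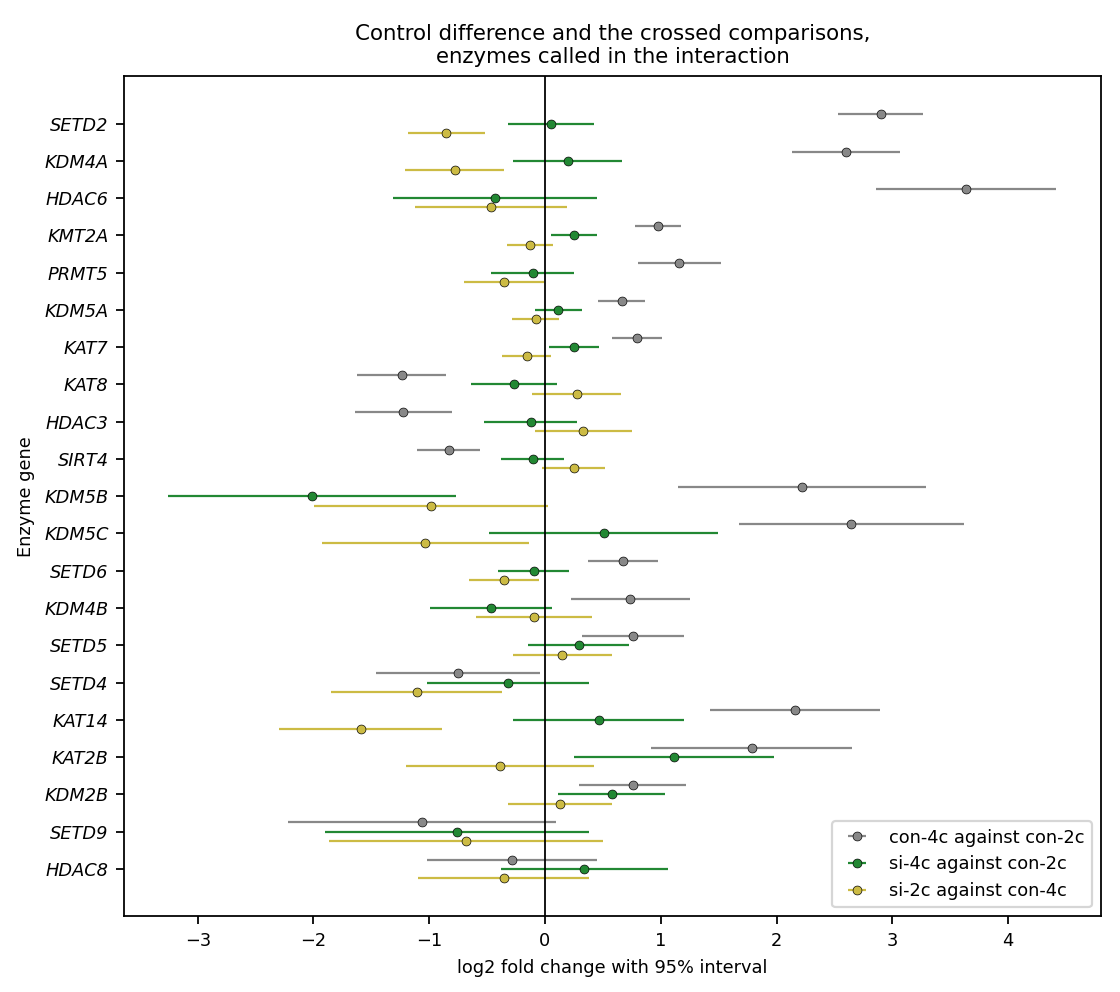
log2 fold changes with 95% intervals (horizontal axis) of the 21 enzymes called in the interaction (rows), for con-4c versus con-2c (grey), si-4c versus con-2c (green) and si-2c versus con-4c (yellow). The grey points of SETD2, KDM4A, HDAC6 and KDM5C lie above 2, the green intervals of SETD2 and KDM4A span 0, and the yellow points of SETD2, KDM4A and KAT14 lie below 0.

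The interaction, which is the 4c minus 2c difference of the si groups after subtracting that of the control groups, tested whether the title stages differed by the same amount in both treatments. It was called for 15 members below 0 and 6 above, against 22.5% and 9.87% of all genes, and without the minimum fold for 23 and 11, against 27.3% and 18.2%. The values furthest from 0 were those of HDAC6 (log2 change -7.24 with standard error 0.53, edgeR adjusted p 7.15e-09), KDM5B (-5.46, standard error 0.77, adjusted p 1.83e-05, or -6.52 and -4.88 without si-4c replicate 2 and 3), SETD2 (-4.89, standard error 0.24, adjusted p 5.42e-11) and KDM4A (-4.23, standard error 0.31, adjusted p 7.04e-09). KAT8 and HDAC3 gave 1.93 and 1.99 (adjusted p 8.34e-06 and 1.52e-05). EZH2, SETDB1, KDM6A and SIRT1 gave -0.06, 0.21, 0.19 and 0.06, with 95% intervals of -0.40 to 0.29, -0.04 to 0.45, -0.21 to 0.58 and -0.29 to 0.42. These values near 0 hold for TMM factors only, since library totals gave -0.70, -0.45, -0.46 and -0.59 (adjusted p 0.00708, 0.00782, 0.0886 and 0.00731), with the signs of SETDB1, KDM6A and SIRT1 turned. The median was -0.31 over the members and -0.23 over all genes. Library totals gave 26 below 0 and 3 above, against 33.6% and 3.21% of all genes under that scaling, and moved the median of all genes by -0.65. Without the minimum fold it gave 41 below 0 and 4 above, against 43.2% and 7.11% of all genes. Of the 11 above 0 with TMM factors 4 passed under library totals, and SUV39H2, KDM1B and PRMT9 changed sign. The further calls of that scaling were KMT2C, KMT2E, EHMT2, SETDB2, SETD3, KDM1A, KDM3A, KDM4C, PRMT1, PRMT7 and HDAC2. Of the 13 under the 2-fold rule, 6 passed in all 17 alternatives, and EHMT2, SETD3 and KDM7A did not without some of the libraries.

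Other genes of these pathways were read from a list of 103 partners and further enzymes, of which 93 were tested. The alternatives were read for the members only, so no partner value has a check under library totals or with a library left out. Higher and lower calls numbered 10 and 2 between the controls, 5 and 2 in si-2c versus con-2c, 3 and 9 in si-4c versus con-4c, and 0 and 0 in si-4c versus con-2c. The shares of all genes were 14.4% and 3.25%, 10.7% and 1.8%, 3.12% and 15.8%, and 0.0333% and 0.3% in the same order. NSD1, an H3K36 methyltransferase like SETD2, had 42.7, 39.6 and 34.6 CPM in con-2c against 316, 322 and 336 in con-4c, then 177, 182 and 202 in si-2c against 45.9, 41.01 and 46.6 in si-4c, with the si-2c libraries between con-4c and the others (log2 change 3.06 with standard error 0.10, edgeR adjusted p 3.34e-13 between the controls). EP300, the acetyltransferase of enhancers, had 14.1, 9.44 and 17.4 CPM in con-2c against 28.1, 31.9 and 37.2 in con-4c, then 23.3, 22.7 and 20.03 in si-2c against 15.6, 15.4 and 15.2 in si-4c and rose in con-4c versus con-2c (log2 change 1.25 with standard error 0.17, edgeR adjusted p 2.14e-05). Of the H3K4 methyltransferase (COMPASS) partners, DPY30 was the only one called in the controls, lower in con-4c at 175 ± 3.66 CPM against 443 ± 20.2 in con-2c (log2 change -1.34 with standard error 0.08, edgeR adjusted p 1.14e-09). SAP30, a subunit of the SIN3 deacetylase complex, was also lower, at 81.5 ± 3.07 against 189 ± 12.5 CPM (log2 change -1.21 with standard error 0.09, edgeR adjusted p 2.31e-08), and both were higher in si-4c relative to con-4c (1.04 and 1.06, adjusted p 2.51e-08 and 1.11e-07). HAT1, which acetylates new histone H4, was higher in si-4c (153 ± 4.71 CPM) relative to con-4c (70.6 ± 5.54 CPM, log2 change 1.12 with standard error 0.13, edgeR adjusted p 2.43e-06). Library totals moved the median of all genes by -0.26 in si-4c versus con-4c. The calls of DPY30, SAP30 and HAT1 in that comparison may therefore not hold under that scaling. Among the 5 partners of arginine methyltransferases, the PRMT5 cofactors CLNS1A and COPRS were lower in con-4c relative to con-2c (-0.89 and -0.58, adjusted p 1.72e-06 and 0.000272), below the 2-fold rule. The interaction was called for 10 of the 93 partners above 0 and 18 below, against 9.87% and 22.5% of all genes. Among them were CLNS1A (1.40), COPRS (1.03) and the PRMT5 cofactor WDR77 (-1.45), with edgeR adjusted p 2.87e-07, 1.92e-05 and 0.0364. WDR77 lay between 1.11 and 3.88 CPM, and replicate 2 raised its con-4c mean (3.88, against 1.64 and 1.43 CPM). Library totals moved the median of all genes by -0.65 in the interaction, so the calls of CLNS1A and COPRS may not hold under that scaling.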

How the data were processed

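Total RNA of pooled porcine IVF embryos was primed with oligo(dT) and amplified by the SMART-seq method, so abundance is the share of polyadenylated mRNA. The authors deposited 1 table of raw read counts per gene for the 12 libraries. The submitters' processing notes name cutadapt 1.9, HISAT2 2.2.1, StringTie 2.1.6, DESeq2, edgeR and the build Sscrofa11.1, and the counting step, annotation release, strand setting and treatment of multimapping reads are not given in the sources used here. Reads of overlapping genes or close paralogues may therefore be shared. No molecular identifiers are mentioned, so amplification copies may be counted as reads.

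Genes passing filterByExpr (17995 of 29329, at least 10 counts or 0.280 CPM in 3 libraries) were fitted with edgeR 4.0.16 in R 4.3.3 (TMM factors 0.852 to 1.21, quasi-likelihood test, 4 group means over all 12 libraries). P-values were adjusted by Benjamini-Hochberg over all genes tested. Calls had an adjusted p below 0.05 together with a log2 change of 1 or more in size. Standard errors were taken as the log2 change over the root of F, and 95% intervals used the degrees of freedom of the quasi-likelihood fit. The biological coefficient of variation was 27.3%. No 2 libraries of a group agreed within counting noise (chi-square per degree of freedom 7.48 to 44.0), so none was merged as a repeat deposit. This does not show that they are separate cultures. Tested on simulated counts for con-4c versus con-2c with 17995 genes, the procedure called 20% of 2-fold and 80% of 4-fold changes. The simulation gave every gene the same dispersion (0.0745), whereas the spread of the real genes differed. A 2-fold change also lies at the cut itself, so many estimates of it fall below the cut by design. The rates are therefore not the power for the members reported here.

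Alternatives were DESeq2 1.42.0, library totals, other count filters, no minimum fold, a replicate block and leaving out each library. They were not read for the partner genes. The members and lists were chosen with earlier results of these data known. Genes named by rule were members called between the controls at 10 CPM or more in the higher group (at most 4 per class and direction), members called in a crossed comparison, and a fixed set (EZH1, EZH2, KDM1A, KDM4A, KDM5B, KDM6A, SETDB1, EHMT2, SUV39H1, SUV39H2, HDAC1, HDAC2, KMT2B and SIRT1). All further members were named after their values were seen, to account for every member, as were the partners given with values. Positions and gene overlaps come from RefSeq on Sscrofa11.1, where 70 of 71 members matched (not KDM5D). The spans of 19 members, introns included, overlap another annotated gene, by 7 to 29293 bases.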

Additional observations from a re-analysis of the deposited data

Results flagged for a closer look

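The interaction tested whether the difference between the titles 4c and 2c was the same in si and control embryos, and 21 of 67 enzymes passed it. The 15 below 0 (22.4%) and 6 above (8.96%) were close to the shares of all genes, 22.5% and 9.87%. SETD2 gave -4.89, KDM4A -4.23, HDAC6 -7.24, KDM5B -5.46 (-6.52 to -4.88 over alternatives) and KDM5C -3.75 on the log2 scale, with fitted means higher in con-4c than con-2c and lower in si-4c than si-2c. PRMT5 gave -2.08, KAT14 -2.26, KAT2B -2.07, KMT2A -1.58, KDM4B -1.84, SETD5 -1.38, KAT7 -1.18, KDM5A -1.13, SETD6 -1.10 and KDM2B -1.07. KAT8 (1.93), HDAC3 (1.99), SIRT4 (1.31), SETD4 (2.29), SETD9 (2.05) and HDAC8 (1.27) lay above 0. SIRT4 is a mitochondrial enzyme, shares 13600 bases of its span with a lncRNA gene and was under the 2-fold rule with library totals (0.66). SETD9 kept its call in 8 of 16 alternatives and HDAC8 in 5 of 17. The stage in the tissue labels is opposite to the titles, and reading it in place of the titles would turn every sign here. Its part in these values was not tested.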

How the results depend on the processing

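Of 66 gene values (54 calls and 12 others named by rule) the 54 calls had 0 sign changes under DESeq2, library totals, 2 other count filters, the replicate block or leaving out a library, while 5 of the others, all near 0 and not called between the controls, changed sign in at least 1 alternative (KMT2B, SETDB1, KDM6A, EZH2 and SUV39H1). Without a minimum fold the members called higher and lower were 25 and 6 (con-4c versus con-2c), 15 and 6 (si-2c versus con-2c), 7 and 19 (si-4c versus con-4c), 9 and 13 (si-4c versus si-2c), and 11 and 23 (interaction), and 6 were lower in si-2c versus con-4c. Library totals gave 14 and 0 (17.9% and 1.27% of all genes), 12 and 1 (16.8% and 0.322%), 0 and 11 (1.29% and 18.7%), 1 and 8 (0.278% and 17.2%), and 3 and 26 (3.21% and 33.6%), with medians of 0.49, 0.46, -0.44, -0.47 and -0.96, and a median of 0.029 in si-2c versus con-4c. Library totals with no minimum fold, added after seeing the data, gave 31 and 3, 37 and 2, 3 and 27, 1 and 34, and 4 and 41 in that order, and 2 and 2 in si-2c versus con-4c. A minimum mean of 1 CPM left 1 lower in si-2c versus con-2c and 2 in si-2c versus con-4c. DESeq2 called 1 lower in si-4c versus con-2c (KDM5B), as did no count filter, and 2 lower in si-2c versus con-4c. Leaving out 1 library at a time gave 3 (without con-2c replicate 1) to 6 higher and 1 (without si-2c replicate 3) to 3 lower in si-2c versus con-2c, 1 to 2 higher in si-4c versus si-2c (2, with HDAC8, without si-2c replicate 3), and 0 (KAT14 lost without con-4c replicate 1) to 2 (SETD2 gained without si-2c replicate 3) lower in si-2c versus con-4c. The cause was not tested. In the interaction, SETD9 was lost in 8 of 16 alternatives (adjusted p 0.0316 to 0.152), HDAC8 in 12 of 17, and KDM2B fell under the 2-fold rule without si-2c replicate 1 (-0.87) or si-4c replicate 2 (-0.99). Samples of the same replicate number did not deviate together (r -0.0495 to 0.0290 over 18 pairs, against -0.0389 to 0.0456 for different numbers), so no pairing by number was seen. This check over all genes cannot decide whether samples share an origin, since a small effect or one on few genes would not show. The replicate block left 5 higher and 15 lower in the interaction, losing HDAC8 (1.30, adjusted p 0.0560, range over alternatives 0.0103 to 0.331), and changed no other call past the 2-fold rule. Members at a few counts per library, such as SUV39H1, HDAC5 and SIRT2, allow no statement on small changes.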
